A study of Mus musculus with 6 samples.

Results

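Cholesterol synthesis, uptake and esterification were followed through 35 genes in the livers of mice with and without a Retnla transgene. The 35 genes were chosen by name for their place in the pathway, with earlier results of these data known. They fall into 6 steps: the mevalonate arm (8 genes), squalene to cholesterol (12), control of the transcription factor SREBP2 (6), uptake (2), trafficking between membranes (3) and esterification with its reverse reaction (4). A gene was read from Affymetrix probe sets, groups of short probes against one transcript, whose platform annotation names that gene alone. Of the 35 genes, 32 had such a probe set, out of 18193 genes in all. Acat2, Soat1 and Soat2 were not analysed here. Soat1 and Soat2 make cholesterol esters, so the esterification step was measured only through the hydrolases that reverse it, Lipa and Nceh1. The probe set of Npc1l1 lay under the filter on dim signals, which left 31 of the 35 genes among the 12705 genes tested.

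The samples were 3 Retnla-Tg livers (Tg 5, Tg 6 and Tg 7) and 3 Retnla-non-Tg livers (non-Tg 1, non-Tg 2 and non-Tg 3), 1 array per mouse. All mice were males on a C57BL6/J background, 3 months old, moved at 8 weeks of age from a standard diet to a high-fat diet with 21% fat and 0.15% cholesterol for 4 weeks, so the cholesterol in the diet was shared by both groups. The promoter that drives the transgene, the number of founder lines, the hour of killing and the feeding state are not stated in the sources used here. Both groups ate the high-fat diet, so no comparison with a low-fat diet was made. Retnla, a secreted protein of the resistin family, had log2 signals of 15.91 to 16.04 in the Tg livers and 6.03 to 7.41 in the non-Tg livers, which matches the labels.

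Liver cells build cholesterol from acetyl-CoA through mevalonate, isoprenoid pyrophosphates and squalene, the first sterol being lanosterol. When sterols in the endoplasmic reticulum are scarce, the escort protein SCAP carries SREBP2 to the Golgi, where a pair of proteases releases its active part, and genes of the whole pathway are switched on together. When sterols are plentiful, INSIG proteins hold SCAP back. Cholesterol that arrives from outside passes through lysosomes, is moved between membranes by transfer proteins, and is stored as esters.

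No gene of the pathway passed the test of Tg against non-Tg livers. By limma's moderated test, adjusted over all 12705 genes by Benjamini and Hochberg at 0.05, 0 of 31 members were called higher, against 0.0157% of all genes, and 0 were called lower, against 0% of all genes. At an unadjusted limma p under 0.05 there were 7 members, Hmgcs1, Fdps, Cyp51, Msmo1, Dhcr7, Insig2 and Mylip, or 22.6% of the 31 against 6.05% of all genes. They pointed both ways: 3 of the 7 had the higher mean in Tg livers (9.68% of the members, against 2.93% of all genes) and 4 the lower mean (12.9%, against 3.12%). The count depended on single mice. The share of all genes changed too, but not in step with the count. There were 2 members without non-Tg 1 (8% of all genes), 3 without non-Tg 2 (3.69%), 3 without non-Tg 3 (4.25%), 5 without Tg 5 (6.23%), 7 without Tg 6 (4.59%) and 4 without Tg 7 (9.39%). There were 2 with no intensity trend in the moderation (5.48% of all genes) and 4 with array weights (7.69%). With 2 sets of arrays, told apart by a spike-in control, as a block there were 4 (5.67%). Adding 16 before the log gave 7 (6.24%), adding 64 gave 6 (6.37%) and robust variance gave 6 (6.05%). The count was 6 of 32 without the filter (6.05%) and 6 of 30 with a filter at the 60th percentile (6.9%). Quantile normalization, centring on the median and averaging probe sets gave 5 each (6.02%, 5.48% and 5.63%). The groups did not overlap for 3 members, Hmgcs1, Mvk and Dhcr7, which is 9.68% of the members and lies near the 11.7% of all genes. Of the 3, Mvk and Dhcr7 were higher in Tg livers (6.04% of all genes) and Hmgcs1 was lower (5.64% of all genes). Over the 31 members the median log2 difference, Tg minus non-Tg, was -0.06, with 13 higher (41.9%) and 18 lower, beside a median of 0.01 and 52.1% higher over all genes tested. An absolute difference above 0.3 was seen in 13 members, or 41.9%, against 30.5% of all genes. The median absolute difference was 0.16 for members and 0.18 for all genes.

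**Figure D1:**
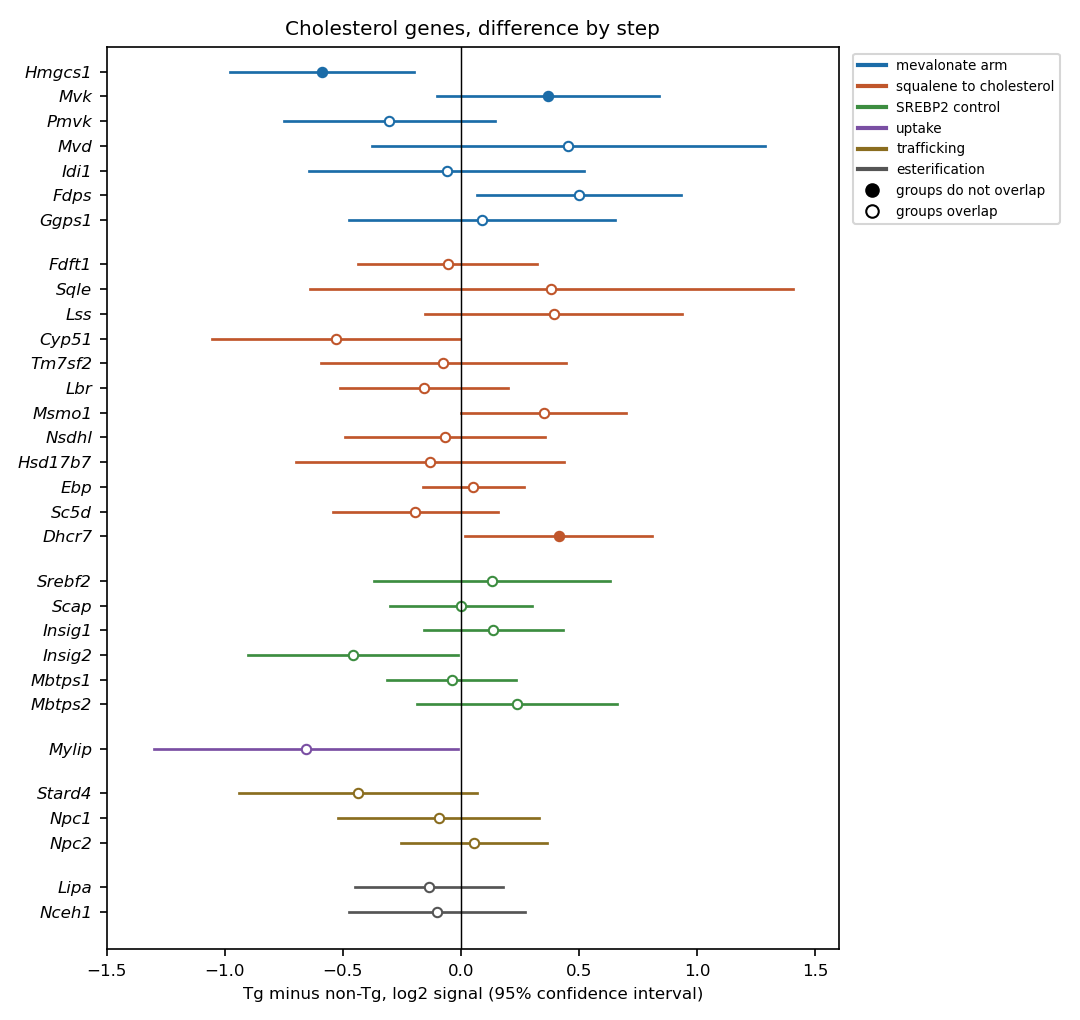
Log2 difference of Tg minus non-Tg livers (x axis) for the 31 members tested (y axis, coloured by step), with the 95% confidence interval of the limma fit, unadjusted, from 3 mice per group. Filled points mark Hmgcs1, Mvk and Dhcr7, whose groups do not overlap; most intervals cross 0, and within the mevalonate arm the points run from -0.59 (Hmgcs1) to 0.50 (Fdps).

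The intervals give the size of difference that these 6 arrays leave possible. For 27 of the 31 members the 95% confidence interval lay inside a 2-fold difference in either direction, as it did for 67.7% of all genes tested. The 4 others were Mvd, Sqle, Cyp51 and Mylip. A member that did not pass is therefore not shown to be equal in both groups. The livers are bulk tissue, so fewer cells of a type and less RNA per cell cannot be told apart.

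In the mevalonate arm, Hmgcs1 had the lowest p of all members. It encodes the cytosolic synthase that makes HMG-CoA, the precursor of mevalonate. Its log2 signals were 11.91, 12.58 and 11.96 in non-Tg 1, 2 and 3, and 11.54, 11.47 and 11.67 in Tg 5, 6 and 7. The groups did not overlap: every Tg mouse was lower than every control, and non-Tg 2 stood highest. The mean log2 signal was 11.56 ± 0.10 in the Tg group against 12.15 ± 0.38 in controls (SD, n = 3). On the fitted scale Hmgcs1 stood at -0.59 ± 0.17 (SE; limma adjusted p = 0.735), or 0.665-fold (95% confidence interval 0.508 to 0.870). Without non-Tg 2 the difference was -0.37. The 3 other probe sets of Hmgcs1 above the filter gave -0.56, -0.60 and -0.50, each close to the first, with overlap between groups in only the second of these.

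Other genes of the arm stood on the opposite side. Mvk, the kinase that phosphorylates mevalonate, had log2 signals of 8.08, 7.72 and 7.91 in non-Tg 1, 2 and 3, and 8.22, 8.18 and 8.42 in Tg 5, 6 and 7. The groups did not overlap, by a gap between non-Tg 1 and Tg 6 that is small beside the spread within groups. The log2 difference was 0.37 ± 0.21 (SE; limma adjusted p = 0.820), while a second, dimmer probe set gave -0.40 ± 0.68 (SE). Fdps makes farnesyl pyrophosphate, from which both sterols and other isoprenoids branch. Its log2 signals were 9.50, 9.68 and 9.81 in non-Tg 1, 2 and 3, and 10.15, 9.81 and 10.53 in Tg 5, 6 and 7. Only Tg 6 reached into the non-Tg range, level with non-Tg 3. The difference was 0.50 ± 0.19 (SE; limma adjusted p = 0.794), or 1.41-fold (95% confidence interval 1.05 to 1.91). Without Tg 7 the Fdps difference was 0.32.

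The rest of the arm had values on both sides of 0. Pmvk, the second kinase, differed by -0.30, Mvd, which decarboxylates the product to isopentenyl pyrophosphate, by 0.45, Idi1, the isomerase of that product, by -0.06, and Ggps1, which lengthens farnesyl to geranylgeranyl pyrophosphate, by 0.09. In all, 4 of 7 tested genes of the arm were higher and 3 lower, with a median of 0.09. All 4 moved with single mice: Mvd stood at 0.18 without Tg 5, 0.24 without non-Tg 3 and 0.67 without non-Tg 1. With each mouse left out in turn, Pmvk ran from -0.41 to -0.23. Idi1 ran from -0.36 to 0.12 and Ggps1 from -0.14 to 0.25, both crossing 0. The limma adjusted p of these 4 genes ran from 0.826 (Pmvk) to 0.974 (Idi1). Hmgcs1 and Fdps, both textbook SREBP2 targets, thus stood at opposite ends of the arm.

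The upstream sequences of the members whose groups did not overlap were searched for the elements through which the pathway is known to be controlled. The 250 bases before the annotated start are printed 5′ to 3′ from RefSeq, build GRCm38.p6, with the sterol regulatory element core TCACNCCAC, the site SREBP2 binds, and CCAAT boxes, the site of its partner NF-Y, in capitals on either strand (a CCAAT on the minus strand reads ATTGG). Hmgcs1 lies at chr13:119690101-119690350, Mvk at chr5:114444019-114444268 and the third of 3 Dhcr7 windows at chr7:143829964-143830213, all on the plus strand.
Hmgcs1: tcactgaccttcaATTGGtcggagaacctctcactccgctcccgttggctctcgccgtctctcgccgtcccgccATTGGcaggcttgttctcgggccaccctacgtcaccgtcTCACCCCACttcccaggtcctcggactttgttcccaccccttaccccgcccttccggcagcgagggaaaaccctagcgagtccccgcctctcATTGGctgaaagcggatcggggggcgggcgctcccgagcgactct
Mvk: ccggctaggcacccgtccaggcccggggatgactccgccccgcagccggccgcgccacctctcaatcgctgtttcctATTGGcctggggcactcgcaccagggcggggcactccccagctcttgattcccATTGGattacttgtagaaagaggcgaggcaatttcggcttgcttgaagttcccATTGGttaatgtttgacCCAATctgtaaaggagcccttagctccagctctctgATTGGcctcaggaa
Dhcr7: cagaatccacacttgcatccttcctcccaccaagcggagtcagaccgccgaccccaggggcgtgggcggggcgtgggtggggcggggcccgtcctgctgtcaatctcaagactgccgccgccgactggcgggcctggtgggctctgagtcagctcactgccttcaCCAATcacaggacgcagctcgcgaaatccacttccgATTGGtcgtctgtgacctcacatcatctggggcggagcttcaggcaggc

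The Hmgcs1 window held 1 sterol regulatory element core, beginning 137 bases before the start, and CCAAT boxes beginning 237, 176 and 45 bases before it. The Mvk window held 5 CCAAT boxes and no such core, and the Dhcr7 window shown held 2 CCAAT boxes, beginning 85 and 49 bases before the start, while its first and second windows held neither. Windows of 250 bases before to 50 after the start were given for 29 of the 35 genes; those of Fdps, Fdft1, Sqle, Stard4, Npc1 and Soat2 were not used here. CCAAT occurred on either strand in 25 of the 29 (86.2%) and in 41.1% of 27025 genes with a window, or 42.3% of the tested genes with one. The core TCACNCCAC occurred in 1 of the 29 (3.45%), Hmgcs1, and in 1.44% of all genes with a window. The motifs do not overlap each other in the windows shown. These are matches of letters only, and sites spelled otherwise were not searched for. A window without the core is therefore not shown to lack a sterol regulatory element. The windows of genes with higher and with lower means in Tg livers both hold CCAAT.

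From squalene to cholesterol the 12 tested genes split into 5 higher and 7 lower, with a median of -0.06. Dhcr7, the reductase that finishes cholesterol from 7-dehydrocholesterol, had log2 signals of 9.50, 9.35 and 9.53 in non-Tg 1, 2 and 3, and 10.21, 9.75 and 9.66 in Tg 5, 6 and 7. The groups did not overlap, and Tg 5 stood well above the others. The difference was 0.41 ± 0.18 (SE; limma adjusted p = 0.807), with a 95% confidence interval of 0.02 to 0.81, and 0.24 without Tg 5. Cyp51, which removes the 14-methyl group of lanosterol, had log2 signals of 8.08, 8.52 and 8.59 in non-Tg 1, 2 and 3, and 8.13, 7.70 and 7.77 in Tg 5, 6 and 7. Non-Tg 1 and Tg 5 lay next to each other, the other mice apart by group. The difference was -0.53 ± 0.23 (SE; limma adjusted p = 0.807), and a second, dimmer Cyp51 probe set gave -0.01 ± 0.44 (SE).

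Msmo1, the 4-methyl sterol oxidase that acts soon after Cyp51, had log2 signals of 10.47, 10.90 and 10.54 in the non-Tg and 11.00, 10.79 and 11.17 in the Tg mice, in label order. Only Tg 6 lay within the non-Tg range, and the difference was 0.35 ± 0.16 (SE; limma adjusted p = 0.807). Sqle, the epoxidase that commits squalene to sterols, differed by 0.38 ± 0.46 (SE), with Tg signals of 7.18, 6.06 and 7.52 on both sides of the non-Tg signals of 6.89, 6.40 and 6.33. It was 0.082 without Tg 7, 0.25 without Tg 5 and 0.81 without Tg 6, and -0.27 within the lower and 1.16 within the higher of the 2 sets of arrays. Lss, which closes the rings to lanosterol, differed by 0.39 on the brightest probe set and by -0.37 and -0.90 on the others. On the brightest it was 0.15 without Tg 5, 0.26 without non-Tg 2 and 0.62 without Tg 6.

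The remaining 7 genes of this step had differences between -0.19 and 0.05. Fdft1, which joins farnesyl units into squalene, stood at -0.06, the sterol dehydrogenase Nsdhl at -0.07, the 3-ketosteroid reductase Hsd17b7 at -0.13, the isomerase Ebp at 0.05 and the desaturase Sc5d at -0.19. Tm7sf2 and Lbr, which share the C14 sterol reductase reaction, stood at -0.08 and -0.16. Ebp had the smallest SE of all members, 0.10, and its 95% confidence interval ran from 0.89-fold to 1.20-fold.

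**Figure D2:**
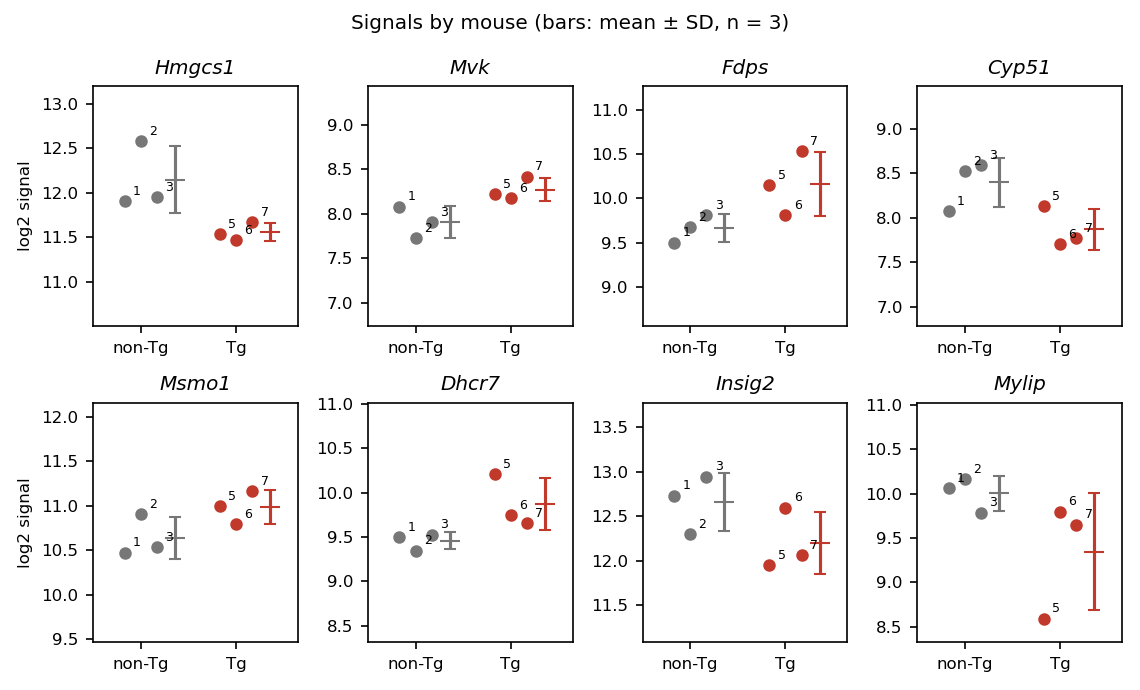
Log2 signal (y axis) in each mouse for the 8 members with an unadjusted limma p under 0.05 or groups that do not overlap. Points are mice with their label numbers, non-Tg in grey and Tg in red, with mean ± SD beside them (n = 3); every panel spans the same range of log2 units. In Mylip, Tg 5 at 8.59 stands apart from Tg 6 at 9.80 and Tg 7 at 9.65.

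Among genes that control SREBP2, Insig2 differed most and the other 5 by 0.24 or less. Insig2 encodes the retention protein that is abundant in liver and not itself an SREBP target. Its log2 signals were 12.73, 12.30 and 12.95 in non-Tg 1, 2 and 3, and 11.95, 12.60 and 12.06 in Tg 5, 6 and 7. Tg 6 lay within the non-Tg range and above non-Tg 2. The difference was -0.46 ± 0.20 (SE; limma adjusted p = 0.807), and the 2 other probe sets gave -0.48 and -0.55, in the same direction with overlapping groups. Insig1, the sterol-regulated INSIG protein, differed by 0.14 ± 0.13 (SE). The difference between the Insig1 and Insig2 responses was not tested.

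Srebf2, which encodes SREBP2, had log2 signals of 8.56, 8.28 and 8.44 in the non-Tg and 8.52, 8.93 and 8.22 in the Tg mice, a difference of 0.13 ± 0.22 (SE), and 0.40 on its second probe set. Scap stood at -0.00 and the site-1 protease gene Mbtps1 at -0.04, with intervals inside 1.25-fold either way. Mbtps2, the site-2 protease gene, had log2 signals of 8.43, 8.68 and 8.34 in the non-Tg and 8.59, 8.67 and 8.89 in the Tg mice. Its groups overlapped, and the difference was 0.24 ± 0.19 (SE; limma adjusted p = 0.847), and 0.15 without Tg 7. The step as a whole had 3 genes higher and 3 lower and a median of 0.07.

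Of the uptake genes, Mylip encodes the ubiquitin ligase IDOL, an LXR target that marks lipoprotein receptors for breakdown. Its log2 signals were 10.06, 10.16 and 9.79 in non-Tg 1, 2 and 3, and 8.59, 9.80 and 9.65 in Tg 5, 6 and 7. Tg 6 lay level with non-Tg 3, Tg 7 just below it, and Tg 5 far below all others. The difference of -0.66 ± 0.29 (SE; limma adjusted p = 0.807) became -0.28 without Tg 5. Npc1l1, the sterol importer known from gut and, in some species, liver, was dim, with log2 signals of 6.90, 5.81 and 5.14 in the non-Tg and 4.63, 6.30 and 2.65 in the Tg mice. The filter stood at 5.63, the groups overlapped, and the value is given without a call.

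Of the trafficking genes, 1 was higher and 2 were lower, with a median of -0.09. Stard4, a soluble sterol carrier, had log2 signals of 10.40, 10.73 and 10.34 in non-Tg 1, 2 and 3, and 10.55, 9.63 and 9.98 in Tg 5, 6 and 7. Tg 6 and Tg 7 lay below all non-Tg mice, while Tg 5 lay within the non-Tg range. The difference was -0.43 ± 0.22 (SE; limma adjusted p = 0.820), with -0.44 and -0.21 on the other probe sets, and it was -0.69 without Tg 5 and -0.22 without Tg 6. Npc1, the membrane protein that exports cholesterol from lysosomes, had log2 signals of 11.26, 11.12 and 11.04 in the non-Tg and 11.52, 10.81 and 10.81 in the Tg mice, a difference of -0.09 ± 0.19 (SE). For Npc1, Tg 5 was the highest of the 6 mice and Tg 6 and Tg 7 were the lowest. Npc2, its soluble partner in the lysosome, stood at 0.05 ± 0.14 (SE).

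Of the ester hydrolases, Lipa, the lysosomal acid lipase, had log2 signals of 12.43, 12.36 and 12.58 in the non-Tg and 12.53, 12.42 and 12.02 in the Tg mice, a difference of -0.14 ± 0.14 (SE; limma adjusted p = 0.873). Tg 7 was the lowest and the others overlapped. Its other probe sets gave 0.09 and 0.13. Nceh1, a neutral cholesterol ester hydrolase, had log2 signals of 10.34, 10.03 and 10.07 in the non-Tg and 10.08, 10.26 and 9.78 in the Tg mice, a difference of -0.10 ± 0.17 (SE; limma adjusted p = 0.914). Its 2 other probe sets each separated the groups, but in opposite directions, at -0.21 and 0.37.

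Where a gene had several probe sets above the filter, their differences were not always on the same side of 0. Only the sign was counted, without regard to the SE, and the share over all genes was not counted. Of 17 such members, 9 had all probe sets on one side of 0 and 8 did not: Mvk, Mvd, Ggps1, Fdft1, Lss, Hsd17b7, Lipa and Nceh1. Hmgcs1 (4 probe sets, -0.60 to -0.50), Insig2 (3, -0.55 to -0.46) and Stard4 (3, -0.44 to -0.21) were on one side throughout. Probe sets of one gene share the mouse and the RNA, so they do not add replicates.

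**Figure D3:**
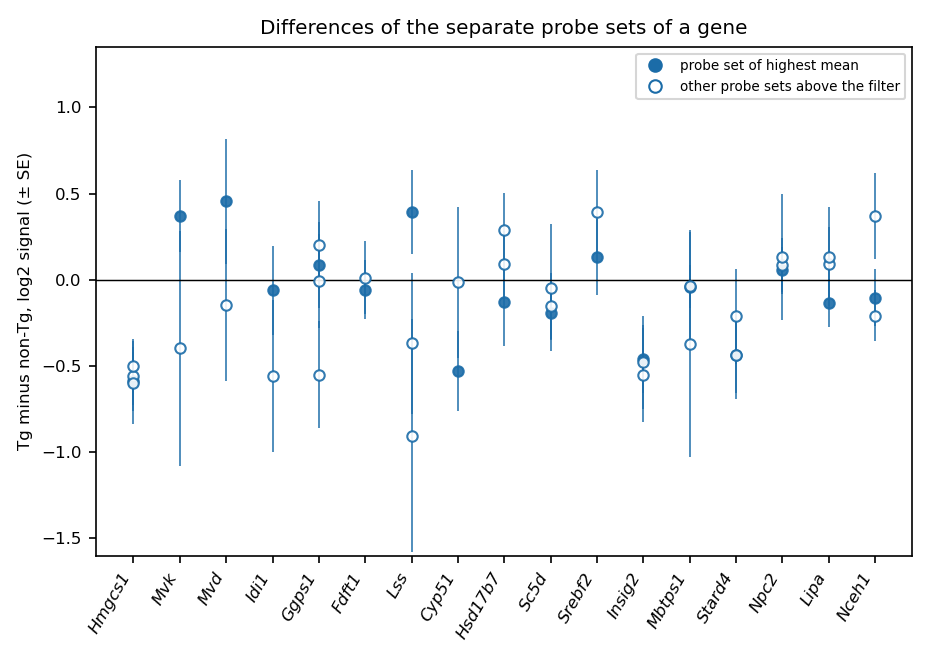
Log2 difference of Tg minus non-Tg livers (y axis, ± SE of the limma fit) for every probe set above the filter of the 17 members with more than one (x axis). Filled points are the brightest probe set, which stands for the gene; the 4 points of Hmgcs1 lie between -0.60 and -0.50, while those of Lss run from -0.90 to 0.39.

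The mice within a group differed in this pathway. The SD between mice was larger in Tg than in non-Tg livers for 23 of 31 members (74.2%), against 55.8% of all genes, and the median SD of members was 0.27 in Tg and 0.18 in non-Tg livers, beside 0.25 and 0.22 over all genes. Among the 19 tested synthesis genes of the first 2 steps it was larger in Tg livers for 12 (63.2%), nearer to the share of all genes. Tg 6 was the lowest of the 6 mice in 10 of 31 members (32.3%, against 17.7% of all genes). The highest was non-Tg 2 in 9 of 31 members (29.0%, against 16.2% of all genes). In the 12 genes from squalene to cholesterol the median deviation from the 6-mouse mean was 0.09 in Tg 5, -0.29 in Tg 6 and 0.14 in Tg 7, and -0.11, 0.12 and -0.04 in non-Tg 1, 2 and 3. Tg 6 was thus the lowest liver for that step, while Tg 7 and non-Tg 2 were nearly level at the top, beside an SD over mice of 0.19. Tg 6 also had the highest signal of the 6 mice for all 10 Kupffer cell and macrophage markers, whose part in its values was not tested. These counts by mouse were made after the values were seen and carry no test.

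**Figure D4:**
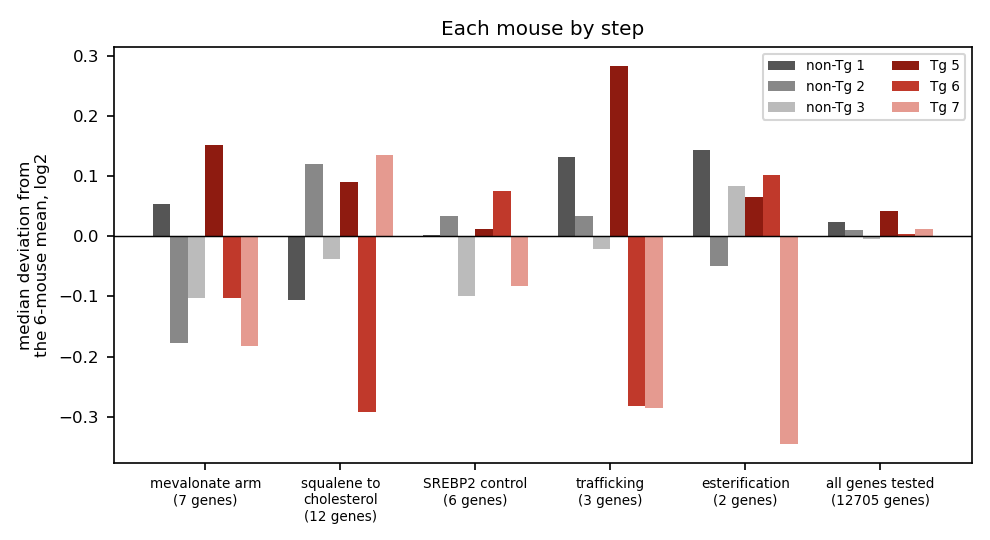
Median deviation of each step's tested genes from their 6-mouse means, in log2 units (y axis), as 1 bar per mouse (non-Tg grey, Tg red), by step (x axis; the single uptake gene is left out) and for all genes tested. The 3 Tg bars do not move together: in the squalene to cholesterol step Tg 6 stands at -0.29 and Tg 7 at 0.14.

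The arrays fell into 2 sets by the signal of bioC, a bacterial transcript spiked in as a control: non-Tg 1, Tg 5 and Tg 6 at 9.83 to 9.94, and non-Tg 2, non-Tg 3 and Tg 7 at 11.21 to 11.44. No label says what the sets stand for. Within the lower and the higher set, Hmgcs1 differed by -0.40 and -0.60, Fdps by 0.48 and 0.78, Msmo1 by 0.42 and 0.45, Dhcr7 by 0.48 and 0.22, Cyp51 by -0.16 and -0.78, Insig2 by -0.46 and -0.56 and Mylip by -0.87 and -0.32, each with a single mouse on one side. All 7 kept their direction in both, but they were picked by their p on these same arrays, so this is no independent check. The share of all genes that did so was not counted. With the sets as a block no member passed; Hmgcs1 stood at -0.50 (limma adjusted p = 0.721), Fdps at 0.63 (0.690) and Msmo1 at 0.44 (0.721). The median of all members was 0.04 in the lower and -0.12 in the higher set.

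Other genes that work with the pathway showed no calls either. Of 39 genes in 5 lists (electron donors of sterol enzymes, isoprenoid branches, sterol sensing, sterol transfer and partners of lipoprotein uptake) 33 were tested, 14 higher and 19 lower, with a median of -0.06; limma called 0 of them, and 1 had an unadjusted p under 0.05. The 4 of smallest p were Cd36, a fatty acid and lipoprotein scavenger receptor, at -0.49 (limma adjusted p = 0.807), Stard3, a late endosomal sterol carrier, at 0.36 (0.807), Rabggta, a subunit of the enzyme that attaches geranylgeranyl groups to Rab proteins, at -0.22 (0.822), and Cyb5r3, the reductase of cytochrome b5, at 0.16 (0.826).

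Markers of the cells in a liver were read the same way. Unless a sum is given for markers above the filter, sums are of antilogged signals over all measured markers of a list, those under the filter included, while counts of higher and lower means are over markers above it. The sums of 6 measured hepatocyte markers, Alb and Ttr among them, were 417566 to 462824 in Tg and 424916 to 443297 in non-Tg livers, with 3 higher and 3 lower. All 10 Kupffer cell and macrophage markers had the higher mean in Tg livers, with a median log2 difference of 0.26 and sums of 20331 (Tg 7) to 51371 (Tg 6) against 25179.6 to 28550.5, which overlap. Tg 6 had the highest signal for all 10. Within the higher set of arrays, whose only Tg liver is Tg 7, just Adgre1 (0.028) and Timd4 (0.022) stood above 0. The other markers stood below 0 there, down to -1.41 for Marco. None of the 10 passed the adjusted limma test. All 4 T and NK cell markers above the filter had the higher mean in Tg livers, with sums of 737 to 1230.5 against 489 to 755, which overlap. Over all 7 measured T and NK cell markers, Cd3d, Cd3e and Cd2 under the filter included, the sums were 829 to 1541 against 544 to 802, without overlap. Of 6 stellate markers above the filter, 5 had the lower mean, and their sums of 10204 to 11957 against 12106 to 15619.6 did not overlap, nor did those of all 7 with Des. Sums ran from 12032 to 14259 against 11804 to 13037 for endothelial markers, 291 to 517 against 356 to 433 for B cell, 241 to 462 against 349.6 to 552 for bile duct and 4239.9 to 6016 against 3186 to 3740.2 for erythroid markers, the last without overlap, also over the 2 above the filter alone. Both erythroid sums are carried by Alas2, with log2 signals of 11.99 to 12.47 in Tg and 11.61 to 11.81 in non-Tg livers. The signals of Slc4a1, Rhag and Epb42 overlapped between groups. Slc4a1, with a non-Tg mean of 5.44, passed the filter only through the Tg group. The 2 measured adipocyte markers, Adipoq and Lep, lay under the filter (sums 6.11 to 9.83 against 45.1 to 65.7), as did Cpa1 and Ctrb1 of 4 pancreatic markers (254.9 to 484 against 159.7 to 275). The part of these cells in the values of Lipa, Nceh1 and the other members was not tested.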

How the data were processed

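Liver RNA of 6 mice was hybridized to Affymetrix mouse genome arrays. The deposited values are log2 signals, 1 per probe set and array, made with GCOS per the submitters' processing notes; how probes were summarised is not stated there. After antilogging and trimming 2% from both ends, signals average 500.0 on every array, so the arrays share a scale. The number of arrays limits the precision.

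Control probe sets (64 of 45101) and those without exactly 1 gene symbol were left out, and probe sets with a mean above the 40th percentile (5.63) were kept. The probe set of highest mean stood for a gene. The groups were contrasted in limma 3.58.1 in R 4.3.3 (lmFit, eBayes with an intensity trend, 4 residual degrees of freedom, 9.61 after moderation), 2-sided, adjusted by Benjamini and Hochberg over 12705 genes. With 20 ways to assign the mice, an exact permutation test cannot give a p below 0.1 here. The script was checked on simulated data. The labels do not say whether the mice were littermates, and p-values cover the spread between these mice only. Alternatives were added constants, filters, scaling, probe set choice, moderation, array weights, the sets of arrays as a block, and leaving out each mouse.

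The members, lists and sets of arrays were chosen with earlier results of these data known. All 35 members are named. Values in every mouse are given for members without overlap and the 2 of smallest p in each step; Msmo1, Sqle and Srebf2 were added after their values were seen. Of other pathway genes the 4 of smallest p are named.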

Additional observations from a re-analysis of the deposited data

How the results depend on the processing

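No member passed limma's test under any of the 17 alternatives, and the lowest adjusted p of a member in them was 0.459, for Hmgcs1 without Tg 7. Of the 31 members, 15 kept their direction in every alternative they were run in. That was 17 alternatives for 14 of them and 16 for Sqle, which the filter at the 60th percentile removed. Among the 15 were Hmgcs1, Fdps, Cyp51, Msmo1, Dhcr7, Insig2, Mylip and Stard4. The 16 other members crossed 0 in 36 of their 272 comparisons. The share of all genes that kept their direction was not counted. All alternatives reuse these 6 arrays, on which the first 7 named had an unadjusted limma p under 0.05. Averaging the kept probe sets moved Mvk to -0.015, Ggps1 to -0.067, Lss to -0.29, Hsd17b7 to 0.084, Lipa to 0.030 and Nceh1 to 0.020. The sets of arrays as a block moved Ggps1 to -0.017, Fdft1 to 0.013, Tm7sf2 to 0.14, Nsdhl to 0.039 and Hsd17b7 to 0.063. Centring on the median moved Ebp to -0.022 and Npc2 to -0.020, quantile normalization moved Scap to 0.028, and adding 64 before the log moved Scap to 2.8e-05. With each mouse left out in turn, the differences ran from -0.36 to 0.12 for Idi1, -0.14 to 0.25 for Ggps1, -0.19 to 0.12 for Fdft1, -0.33 to 0.090 for Tm7sf2, -0.18 to 0.10 for Nsdhl, -0.44 to 0.080 for Hsd17b7, -0.054 to 0.30 for Srebf2, -0.12 to 0.079 for Scap, -0.093 to 0.0080 for Mbtps1, -0.33 to 0.024 for Npc1, -0.077 to 0.18 for Npc2, -0.24 to 0.018 for Lipa and -0.21 to 0.029 for Nceh1. The cause was not tested.

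The median of the mevalonate arm became -0.067 with averaged probe sets, ran from -0.046 to 0.25 with a mouse left out (highest without non-Tg 2) and was -0.12 within the higher set of arrays, where the squalene to cholesterol step stood at 0.16, SREBP2 control at -0.075 and the ester hydrolases at -0.36. The median of all members was 0.043 within the lower set.

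Over all genes, the 2 called higher and 0 called lower became 4 and 2 with 64 added and 4 and 2 at an adjusted p of 0.1. The count called lower was 1 with 16 added, 2 with median centring, 1 with robust variance, 1 with the block and 0 to 1 with a mouse left out. The sterol regulatory element count was 1 with either motif spelling. No paired analysis was possible because the groups share no replicate number. Signals near or under the filter limit Npc1l1, Sqle and the dimmer probe sets of Mvk and Lss.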
